A study of Mus musculus with 45 samples.

Results

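The translation factor eIF2 is switched off by phosphorylation of its alpha subunit, and 6 mouse genes encode the enzymes and regulatory subunits that set this mark. They are the kinase genes Eif2ak1, Eif2ak2, Eif2ak3 and Eif2ak4 and the phosphatase subunit genes Ppp1r15a and Ppp1r15b. Members were taken as the rows of the count table that carry these symbols, which gave 6 of the 28454 genes listed, and each symbol matched 1 row. All 6 passed the filter on low counts in every model below. They were followed across 45 libraries of 11 mouse mammary tumour cell lines.

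Each eIF2alpha kinase senses a different stress. HRI, encoded by Eif2ak1, is held inactive by heme and also relays mitochondrial stress. PKR, encoded by Eif2ak2, binds double-stranded RNA and is itself an interferon-induced gene. PERK, encoded by Eif2ak3, sits in the membrane of the endoplasmic reticulum and responds to unfolded proteins, while GCN2, encoded by Eif2ak4, is activated by uncharged tRNA when an amino acid runs short. Phosphorylated eIF2 blocks its own exchange factor eIF2B, which lowers general translation and favours translation of ATF4, the transcription factor of the integrated stress response (ISR). The mark is removed by protein phosphatase 1 (PP1), which is brought to eIF2 by GADD34, encoded by Ppp1r15a and induced by the ISR as negative feedback, or by CReP, encoded by Ppp1r15b and produced without stress.

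MYAZ16_1e, MYAZ12_3i and MYAZ6_6g were established from mammary tumours of MMTV-cMYC mice, in which a mammary tumour virus promoter drives the oncogene Myc, and MYAZ12_3i_NDI1 is labelled as MYAZ12_3i with NDI1, the name of a yeast mitochondrial NADH dehydrogenase. Myc310 came from a mouse of the same model with multiple tumours, the LM lines (LM1, LM2 and LM3) from lungs of mice that had received Myc310 cells in the fat pad, and the LM-LM lines (LM1_LM, LM2_LM and LM3_LM) from lungs after a further round of injection, LM1_LM from LM1. Every line was cultured 24 h in the same medium, which was then replaced for 6 h by control medium, and MYAZ16_1e, Myc310, LM1 and LM1_LM were also given 6 h without cysteine and cystine (deprived). Each of the 15 groups of line and medium has 3 libraries, which the submitters call technical replicates, so that p-values measure only the spread between these cultures or libraries, and Myc310 and each deprived condition of a subtype rest on 1 line.

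Polyadenylated RNA was sequenced, and the values are whole-number counts per gene. Libraries held between 19517859 and 29019988 counts on genes (median 22899900), with scaling factors between 0.925 and 1.04. Levels are given as CPM, which scale the counts to the library size after TMM correction, and levels of different genes are compared only as CPM per kilobase of exon. No member had fewer than 304 counts in any library, the lowest being Eif2ak3 in MYAZ16_1e. MYAZ16_1e control replicate 3 and MYAZ12_3i control replicate 2 carry library numbers that lie apart from those of their groups, and results that depend on them are given with and without them. Among 8 mammary epithelial markers, the keratins Krt8 and Krt18 were abundant in every library (217 to 1731 CPM and 94.0 to 550.0 CPM), whereas the defining markers Epcam, Cdh1 and Krt5 stayed under 1 CPM everywhere. The summed level of the 6 leukocyte markers in the table was 2.77 to 19.7 CPM, with Ptprc under 1 CPM everywhere, and that of the 4 alveolar markers was at most 1.97 CPM.

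Ppp1r15a showed the largest response of the 6 genes to deprivation. It lies on the minus strand of chromosome 7 (GRCm38, 45522916 to 45526268), where its 3′ end overlaps Tulp2 on the other strand, a gene at no more than 0.171 CPM in any library. A stretch of its promoter is shown because this is the member whose mRNA rose most and because the stretch holds 2 of the 5 motifs searched. It runs from 150 bases before to 30 bases after the RefSeq transcription start (GRCm38.p6, chr7:45526239-45526418, minus strand), with a cAMP response element (TGACGTCA, 12 bases before the start) and a TATA-like match (TATAAA, at base 16 of the transcript) in capitals.
Ppp1r15a: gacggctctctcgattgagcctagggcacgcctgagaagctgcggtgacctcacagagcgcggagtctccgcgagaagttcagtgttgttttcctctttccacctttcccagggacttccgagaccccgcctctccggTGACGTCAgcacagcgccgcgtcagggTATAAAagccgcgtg
Of 32851 RefSeq promoter windows, all of one length around a start, 1.79% hold TGACGTCA on either strand and 8.32% hold TATAAA on the gene's strand. The window also holds GAAANNGAA, the core of an interferon-stimulated response element, at position -220 from the start, which 8.56% of windows hold. TGATGNAA, the form bound by C/EBP-ATF dimers, is present in 3.97% of windows and in none of the windows of the members. These matches are descriptions of the letters and not evidence that a factor binds.

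In control medium, Ppp1r15a in MYAZ16_1e stood at 22.09, 22.02 and 23.6 CPM, and after 6 h of deprivation at 108, 116 and 115 CPM. In Myc310 the libraries moved from 18.6, 17.5 and 19.4 CPM to 292, 287 and 287 CPM. LM1 libraries moved from 20.8, 22.3 and 20.0 CPM to 366, 391 and 383 CPM, and those of LM1_LM from 19.3, 20.7 and 21.0 CPM to 383, 410 and 418 CPM. In each line every deprived library was above every control library, and the deprived libraries of MYAZ16_1e lay below all those of the other lines although its control libraries did not. In bulk libraries, the number of cells that express a gene and the amount of its RNA per cell cannot be told apart. The log2 fold change was 2.31 ± 0.05 (SE, n = 3 libraries per group) in MYAZ16_1e, a 4.96-fold rise (edgeR's quasi-likelihood test, adjusted p = 7.97e-27). It was 3.95 ± 0.05 in Myc310, 4.21 ± 0.04 in LM1 and 4.35 ± 0.04 in LM1_LM, or 15.4-fold, 18.5-fold and 20.4-fold (edgeR adjusted p of at most 4.98e-33). Among the 13400 genes tested, Ppp1r15a held place 148 from the highest fold change in MYAZ16_1e, 90 in Myc310, 95 in LM1 and 85 in LM1_LM.

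Ppp1r15b, the constitutive partner, lies on the plus strand of chromosome 1 (133131143 to 133139783) and rose in the same 4 lines by far less. Its libraries in MYAZ16_1e were at 128, 125 and 128 CPM in control medium and at 163, 166 and 174 CPM after deprivation. In LM1_LM they were at 140.0, 152 and 145 CPM and then at 274, 265 and 272 CPM. Control and deprived libraries did not overlap in any of the 4 lines. The log2 fold change was 0.39 ± 0.03 (SE) in MYAZ16_1e, 0.50 ± 0.03 in Myc310, 0.84 ± 0.03 in LM1 and 0.93 ± 0.03 in LM1_LM (edgeR adjusted p of at most 1.74e-12). Gm26616, which overlaps its start on the other strand, did not exceed 0.803 CPM in any library. No promoter sequence is shown for Ppp1r15b.

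Eif2ak4, whose product GCN2 is the kinase of amino acid shortage, fell in every line tested. It lies on the plus strand of chromosome 2 (118388618 to 118475234) and overlaps no other annotated gene. In MYAZ16_1e its control libraries stood at 46.4, 44.7 and 45.3 CPM and its deprived libraries at 39.1, 37.8 and 38.1 CPM. In LM1_LM they stood at 33.9, 32.5 and 35.9 CPM against 15.8, 18.9 and 18.3 CPM. All deprived libraries were below all control libraries of their own line. The log2 fold change was -0.25 ± 0.06 (SE) in MYAZ16_1e, -0.53 ± 0.06 in Myc310, -0.84 ± 0.07 in LM1 and -0.92 ± 0.07 in LM1_LM (edgeR adjusted p of at most 0.000516).

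Eif2ak1, which encodes the heme-regulated kinase HRI, fell as well. In MYAZ16_1e it went from 57.5, 60.9 and 62.9 CPM to 48.2, 51.6 and 48.3 CPM, and in LM1 from 58.2, 57.0 and 60.7 CPM to 31.0, 34.3 and 36.6 CPM. No deprived library reached a control library of its line. This was a log2 fold change of -0.30 ± 0.05 (SE) in MYAZ16_1e, -0.65 ± 0.05 in Myc310, -0.75 ± 0.05 in LM1 and -0.74 ± 0.05 in LM1_LM (edgeR adjusted p of at most 3.03e-06). Eif2ak1 lies on the plus strand of chromosome 5 (143817788 to 143904251) and overlaps Aimp2 on the other strand, which was expressed at 48.7 to 88.5 CPM. The strand setting of the counting is not given in the sources used here, so reads in the shared bases cannot be assigned to one of both genes with certainty. Aimp2 was at 64.5 to 83.0 CPM in the 12 control libraries of the 4 lines and at 48.7 to 60.7 CPM in the 12 deprived ones, and its part in the change of Eif2ak1 was not tested.

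Eif2ak2, the gene of the double-stranded RNA sensor PKR, fell in every line as well. Its promoter is given because, among the windows of the 5 members searched (Ppp1r15b was not), it is the one with GAAANNGAA after the start. The stretch (GRCm38.p6, chr17:78882543-78882722, minus strand) covers 150 bases before to 30 bases after the RefSeq start, and capitals mark the part of 2 overlapping matches, at bases 19 and 25, that falls within it.
Eif2ak2: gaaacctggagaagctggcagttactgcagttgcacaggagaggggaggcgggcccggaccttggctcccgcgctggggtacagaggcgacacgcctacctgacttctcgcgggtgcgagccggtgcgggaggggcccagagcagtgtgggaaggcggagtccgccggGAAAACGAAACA
The Eif2ak2 libraries went from 50.1, 47.9 and 46.1 CPM to 39.9, 38.8 and 41.9 CPM in MYAZ16_1e and from 36.9, 33.3 and 37.2 CPM to 29.5, 30.1 and 26.2 CPM in Myc310. In LM1 they went from 37.8, 36.2 and 36.3 CPM to 29.2, 25.4 and 27.1 CPM. The media did not overlap in any line. The log2 fold change was -0.26 ± 0.05 (SE) in MYAZ16_1e, -0.34 ± 0.06 in Myc310, -0.40 ± 0.06 in LM1 and -0.46 ± 0.06 in LM1_LM (edgeR adjusted p of at most 0.000126). The gene lies on the minus strand of chromosome 17 (78852564 to 78882573), and Gm26637, which overlaps its 5′ end on the other strand, did not exceed 0.159 CPM.

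Eif2ak3, which encodes the endoplasmic reticulum kinase PERK, was the only kinase gene that rose, and it did so in LM1 and LM1_LM. In LM1 it went from 21.7, 21.9 and 20.2 CPM to 28.0, 29.3 and 28.1 CPM, and in LM1_LM from 22.13, 22.4 and 22.7 CPM to 33.9, 31.8 and 34.5 CPM. In MYAZ16_1e the libraries of both media overlapped, at 15.2, 15.3 and 16.4 CPM against 16.1, 15.2 and 17.3 CPM, and those of Myc310 did as well, at 27.9, 30.6 and 25.7 CPM against 27.6, 25.5 and 27.2 CPM. On the log2 scale the change was 0.46 ± 0.06 (SE) in LM1 and 0.61 ± 0.06 in LM1_LM (edgeR adjusted p = 1.62e-07 and 2.03e-10). It was 0.04 ± 0.07 in MYAZ16_1e, with a 95% interval from -0.09 to 0.18 (edgeR adjusted p = 0.65), and -0.08 ± 0.06 in Myc310, from -0.20 to 0.04 (edgeR adjusted p = 0.231). Eif2ak3 lies on the plus strand of chromosome 6 (70844515 to 70905245), and its promoter window holds CCAAT 6 times on either strand, a motif found in 37.4% of all windows.

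**Figure D1:**
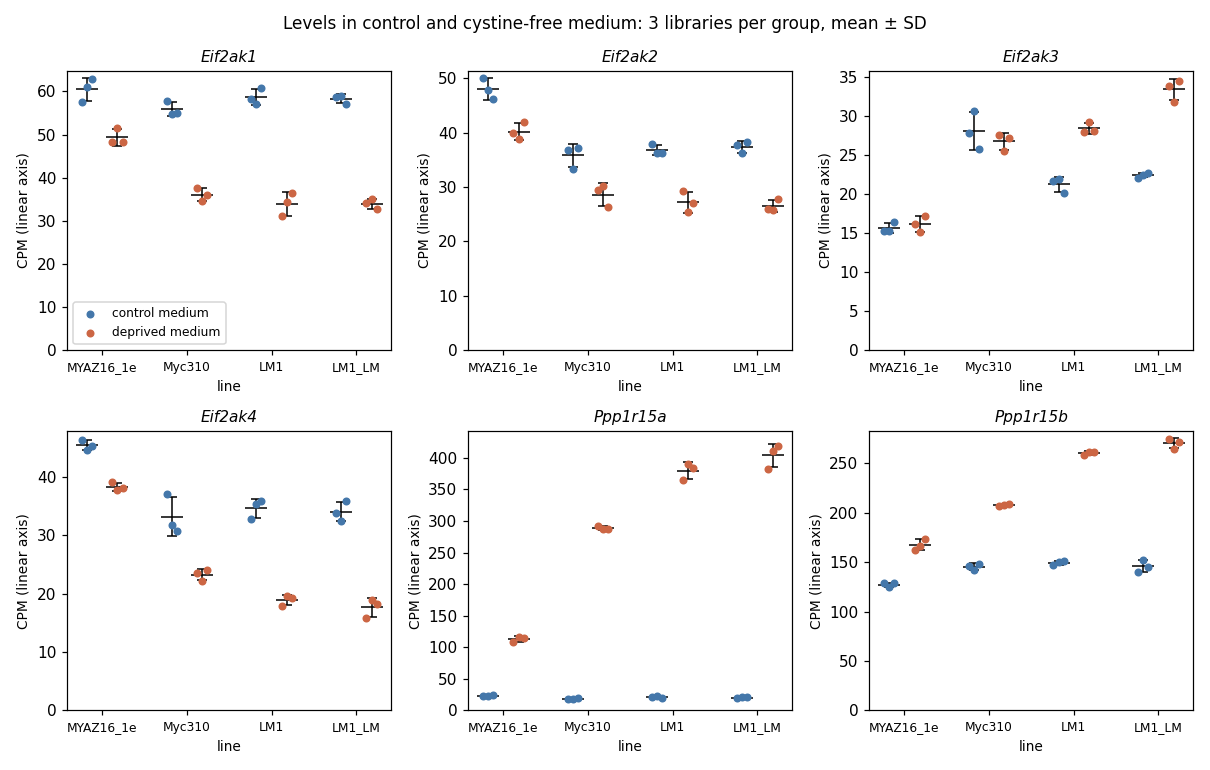
Level (CPM, linear axis from 0) of each of the 6 genes in control and deprived medium in 4 lines, with 1 point per library and the mean ± SD of 3 libraries in black. Ppp1r15a rises from about the same control level to 113 CPM in MYAZ16_1e and 404 CPM in LM1_LM, whereas the points of Eif2ak3 overlap between media in MYAZ16_1e and Myc310.

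Deprivation moved a large part of the transcriptome, and the counts of members are read against that. The share of all genes whose libraries did not overlap between media or between lines was not computed. Non-overlap is therefore given as a description only. In MYAZ16_1e, 2 members rose and 3 fell, where 26.6% of all genes tested rose and 27.1% fell. In Myc310 the counts were 2 and 3, beside 32.8% and 33.9% of all genes. They were 3 and 3 in LM1 (35.8% and 35.3% of all genes) and 3 and 3 in LM1_LM (36.5% and 35.9%). The size of the change set Ppp1r15a apart in each line, since the other members stayed within the range that holds the central 90% of genes (5th to 95th percentile), from -0.63 to 0.96 on the log2 scale in MYAZ16_1e and from -1.62 to 1.56 in LM1_LM. Summed mammary epithelial markers were at 1016 to 1400 CPM in the 12 control libraries and at 1317 to 1640 CPM in the 12 deprived libraries of these lines, and leukocyte markers at 5.68 to 13.9 CPM and 6.15 to 16.8 CPM. Fibroblast markers were at 1.54 to 63.2 CPM and 2.64 to 28.9 CPM, endothelial markers at 0 to 5.11 CPM and 0.0940 to 5.07 CPM, and alveolar markers at 0.374 to 1.90 CPM and 0.0504 to 0.746 CPM. The part of these markers in the changes of the members was not tested.

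**Figure D2:**
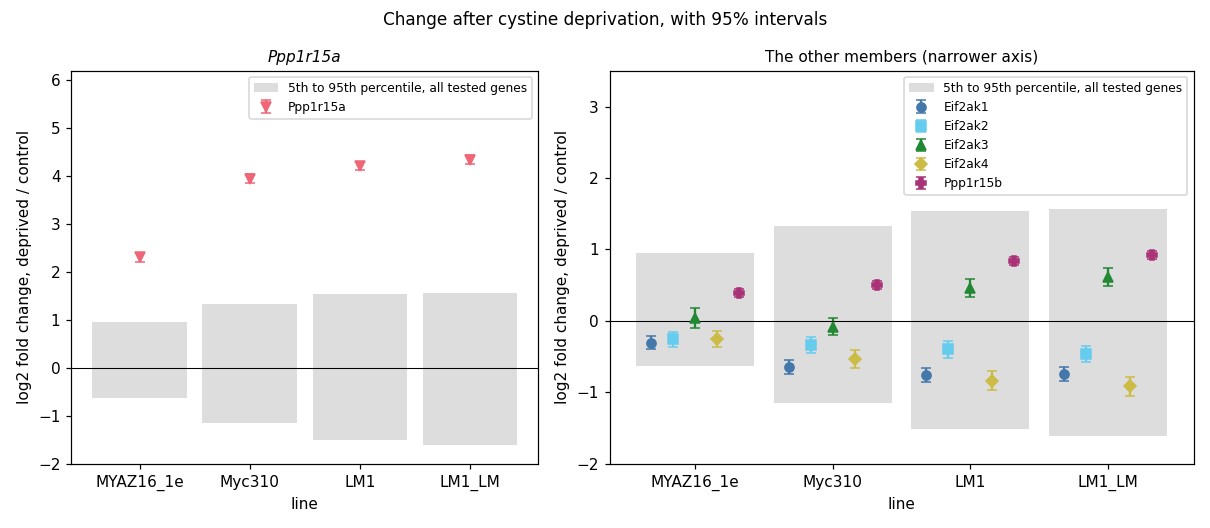
Log2 fold change, deprived over control, of Ppp1r15a (left) and the other 5 genes (right, narrower axis) in each line with 95% intervals, over grey bars that span the 5th to 95th percentile of all genes tested. Ppp1r15a lies above the grey bar in every line, from 2.31 in MYAZ16_1e to 4.35 in LM1_LM, and the other genes lie within it.

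The difference between lines in the response was tested as an interaction, which asks whether the fold change in one line differs from that in another. The 3 contrasts against MYAZ16_1e share its 6 libraries and are therefore not independent of one another. The rise of Ppp1r15a was larger than in MYAZ16_1e by 1.64 ± 0.07 (SE, log2 scale) in Myc310, 1.90 ± 0.07 in LM1 and 2.04 ± 0.07 in LM1_LM (edgeR adjusted p of at most 2.44e-17). That of Ppp1r15b was larger by 0.11 ± 0.04, 0.45 ± 0.04 and 0.54 ± 0.04 in the same order (edgeR adjusted p = 0.0357, 1.5e-10 and 1.99e-12). The fall of Eif2ak1 was deeper than in MYAZ16_1e, with differences of -0.34 ± 0.07, -0.45 ± 0.07 and -0.44 ± 0.07 (edgeR adjusted p of at most 0.000153), and so was that of Eif2ak4, with -0.28 ± 0.09, -0.59 ± 0.09 and -0.66 ± 0.09 (edgeR adjusted p = 0.0116, 1.67e-06 and 1.69e-07).

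Eif2ak3 rose in LM1 and LM1_LM but was not called in Myc310 or MYAZ16_1e, and all pairs of these lines except LM1_LM and Myc310 were tested against each other. Its response exceeded that of MYAZ16_1e by 0.41 ± 0.09 (SE) in LM1 and 0.57 ± 0.09 in LM1_LM (edgeR adjusted p = 0.000394 and 3.81e-06), whereas the difference for Myc310 was -0.13, with a 95% interval from -0.31 to 0.06 (edgeR adjusted p = 0.302). LM1 also exceeded its parental line Myc310 directly, by 0.54 ± 0.09 (edgeR adjusted p = 2.49e-05). Eif2ak2 differed least, by -0.08 (interval -0.23 to 0.07) in Myc310 and -0.14 (interval -0.29 to 0.02) in LM1, neither past the threshold, and by -0.20 ± 0.08 in LM1_LM (edgeR adjusted p = 0.0334). With upper-quartile scaling the difference in LM1 was -0.22 and passed it (edgeR adjusted p = 0.0218). In all, 4 members differed from MYAZ16_1e in Myc310, 5 in LM1 and 6 in LM1_LM, where 40.3%, 52.2% and 54.8% of all genes did. With upper-quartile scaling in place of TMM, the split of these genes into larger and smaller log2 responses moved from 3604 and 3391 to 2871 and 4129 for LM1 and from 3801 and 3544 to 3048 and 4271 for LM1_LM, while no difference of a member against MYAZ16_1e changed sign.

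Several of the small differences between lines did not hold under every setting. The Eif2ak2 difference of LM1_LM was past the threshold with all libraries but not without MYAZ16_1e control replicate 3 (-0.17, edgeR adjusted p = 0.096), without the filter on low counts (-0.19, edgeR adjusted p = 0.0618) or without the libraries of any 1 replicate number (-0.23 to -0.15, edgeR adjusted p of 0.053 to 0.204). The Ppp1r15b difference of Myc310 was likewise lost without that library (0.10, edgeR adjusted p = 0.0715), without the filter (0.11, edgeR adjusted p = 0.0599) and with upper-quartile scaling (0.07, edgeR adjusted p = 0.146). It was also lost without the libraries numbered 1 (0.09, edgeR adjusted p = 0.186) or 2 (0.10, edgeR adjusted p = 0.147). The Eif2ak4 difference of Myc310 was -0.19 (edgeR adjusted p = 0.0931) without the libraries numbered 1 and -0.27 (edgeR adjusted p = 0.0748) without those numbered 2.

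Between LM1 and Myc310, 4 members differed in response (24.5% of all genes did). Ppp1r15a rose more in LM1 by 0.26 ± 0.07 (SE, log2) and Ppp1r15b by 0.34 ± 0.04 (edgeR adjusted p = 0.0062 and 2.65e-07), Eif2ak4 fell more by -0.31 ± 0.09 (edgeR adjusted p = 0.0134), and Eif2ak3 is given above. Without the libraries numbered 3 the differences of Ppp1r15a and Eif2ak4 were 0.17 (edgeR adjusted p = 0.186) and -0.23 (edgeR adjusted p = 0.214), no longer past the threshold, and 2 members remained. Eif2ak4 was also lost without the libraries numbered 2 (-0.33, edgeR adjusted p = 0.0673). The split of all genes in this contrast was 1943 larger and 1335 smaller with TMM and 1332 and 1785 with upper-quartile scaling. LM1_LM and LM1 were nearest to each other. None of the 6 members passed the threshold with edgeR or with DESeq2 (0.769% of all genes did with edgeR), and 1 member, Ppp1r15b, had an unadjusted edgeR p-value under 0.05, with a difference of 0.09 and a 95% interval from 0.01 to 0.17. The interval for Ppp1r15a ran from 0.00 to 0.27 (edgeR adjusted p = 0.448; its unadjusted p-value was above 0.05, as these intervals are slightly narrower than the test implies) and that for Eif2ak3 from -0.01 to 0.33. The split of all genes between these lines was 44 larger and 59 smaller with edgeR and 59 and 123 with DESeq2.

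The balance between the phosphatase subunits was compared per kilobase of exon, over 2937 exonic bases of Ppp1r15a and 5594 of Ppp1r15b. In control medium Ppp1r15a was the lower of the pair in every line, at 0.223 (LM2_LM) to 0.341 (MYAZ6_6g) of the level of Ppp1r15b. After deprivation the ratio was 1.28 ± 0.04 (SD, n = 3) in MYAZ16_1e, 2.65 ± 0.04 in Myc310, 2.78 ± 0.08 in LM1 and 2.85 ± 0.16 in LM1_LM. On this scale the order of both genes was thus opposite in the media, with Ppp1r15a at 38.4 ± 1.5 CPM per kb against 29.9 ± 1.0 for Ppp1r15b in deprived MYAZ16_1e and at 137 ± 6 against 48.3 ± 0.9 in deprived LM1_LM. The order depends on the lengths used, which join all annotated exons of a gene. Which transcripts were expressed was not tested.

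The kinase transcripts together fell in length-scaled level. Their sum was 28.8 ± 0.2 CPM per kb (SD, n = 3) in control MYAZ16_1e and 24.4 ± 0.2 after deprivation. In Myc310 it was 26.0 ± 0.9 and then 19.5 ± 0.5. LM1 had 25.7 ± 0.2 and then 18.6 ± 0.4, and LM1_LM had 25.9 ± 0.3 and then 19.1 ± 0.3. Within that sum the order of the kinases in control medium was Eif2ak1, Eif2ak2, Eif2ak4 and Eif2ak3 in MYAZ16_1e, with shares of 37.1%, 32.7%, 21.2% and 9.03%. The share of Eif2ak3 in LM1_LM was 14.4% ± 0.2 in control medium and 29.03% ± 1.2 after deprivation, when it lay close to Eif2ak1 (31.4% ± 1.4) and Eif2ak2 (27.2% ± 0.8). The share of Eif2ak4 went the other way in LM1_LM, from 17.7% ± 0.7 to 12.4% ± 1.0, and stayed at 21.2% ± 0.4 and 21.1% ± 0.5 in MYAZ16_1e.

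**Figure D3:**
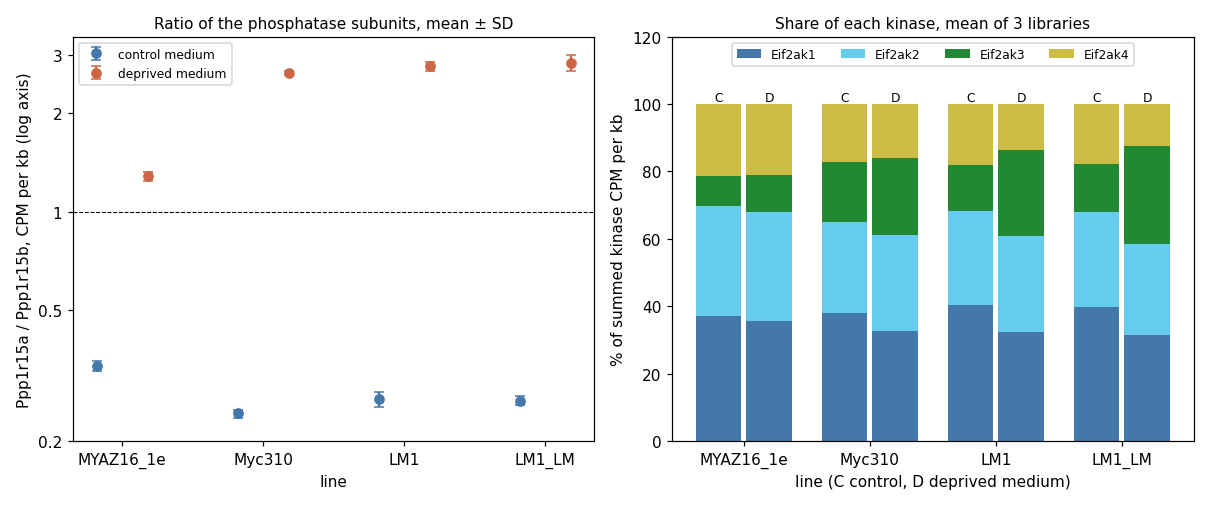
Left, ratio of Ppp1r15a to Ppp1r15b in CPM per kb of exon (log axis, mean ± SD of 3 libraries) in control and deprived medium; right, share of each kinase in the summed kinase CPM per kb (mean of 3 libraries) for control (C) and deprived (D) medium. The ratio is under 1 in every control group and between 1.28 and 2.85 in the deprived groups, and the share of Eif2ak3 in LM1_LM is 14.4% in control medium and 29.03% after deprivation.

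Across the lines in control medium, Eif2ak3 and Eif2ak4 set the MYAZ lines apart from Myc310 and its descendants. Over the 9 MYAZ libraries Eif2ak3 had its lowest value at 15.2, its median at 16.4 and its highest at 18.1 CPM, and over the 21 libraries of Myc310 and its descendants these were 20.2, 26.1 and 33.5 CPM, with no overlap. Eif2ak4 showed the opposite order, at 39.7, 45.3 and 52.5 CPM in the MYAZ libraries and at 30.8, 33.9 and 38.5 CPM in the others, again with no overlap. The log2 fold change of Eif2ak3 against MYAZ was 0.78 ± 0.12 (SE) for Myc310, 0.65 ± 0.09 for LM and 0.71 ± 0.09 for LM-LM (edgeR adjusted p of at most 5.83e-06). That of Eif2ak4 was -0.47 ± 0.08, -0.44 ± 0.06 and -0.40 ± 0.06 (edgeR adjusted p of at most 1.58e-05). For Myc310, a single line, the Eif2ak4 call was lost with the line as a random block (-0.42, limma voom adjusted p = 0.0787). Both genes also passed the threshold in LM and LM-LM when the counts of each line were summed first, so that a line and not a library was the replicate (edgeR adjusted p of at most 0.0261 in LM and 0.0242 in LM-LM). The LM and LM-LM lines all descend from Myc310, so they are not independent of one another, which the summed fit does not model. In that fit 2 of the 6 members were called, beside 25.1% of all genes in LM and 28.1% in LM-LM.

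The remaining members differed less between the subtypes. Eif2ak2 was lower than in MYAZ by 0.28 ± 0.07 (SE, log2) in LM and lower by 0.27 ± 0.07 in LM-LM, and Ppp1r15a was lower by 0.24 ± 0.06 and 0.28 ± 0.06 (edgeR adjusted p of at most 0.00216). Ppp1r15b was higher by 0.13 ± 0.03 in both (edgeR adjusted p of at most 0.000271). With counts summed per line, Eif2ak2, Ppp1r15a and Ppp1r15b no longer passed the threshold in either subtype (edgeR adjusted p of 0.131 to 0.2), at differences of -0.27 and -0.25, -0.23 and -0.27, and 0.14 and 0.14 in LM and LM-LM, nor did they with the line as a random block (limma voom adjusted p of 0.062 to 0.172). Without MYAZ16_1e the Eif2ak2 difference was -0.14 in LM and -0.13 in LM-LM and that of Ppp1r15b was 0.08 in both, and without MYAZ6_6g that of Ppp1r15a in LM was -0.16, all still past the threshold. Eif2ak1 did not pass it, with differences of 0.03 (95% interval -0.08 to 0.13) in LM and 0.06 (interval -0.04 to 0.17) in LM-LM. The latter was past the threshold without LM3_LM (0.14, edgeR adjusted p = 0.0202) or without MYAZ16_1e (0.14, edgeR adjusted p = 0.0128). The Ppp1r15a difference in LM was lost without the libraries numbered 3 (-0.18, edgeR adjusted p = 0.0819). In Myc310, a single line, Ppp1r15a differed by -0.28 ± 0.09 and Ppp1r15b by 0.10 ± 0.04 (edgeR adjusted p = 0.0128 and 0.0299), Eif2ak2 by -0.18 ± 0.10 (edgeR adjusted p = 0.124) and Eif2ak1 by 0.04 ± 0.07 (edgeR adjusted p = 0.681). With the line as a random block neither Ppp1r15a (-0.31, limma voom adjusted p = 0.339) nor Ppp1r15b (0.10, limma voom adjusted p = 0.561) passed the threshold in Myc310. Ppp1r15a was also lost without the libraries numbered 1 (-0.29, edgeR adjusted p = 0.0887) or 3 (-0.27, edgeR adjusted p = 0.0811), and Ppp1r15b without those of any 1 replicate number (edgeR adjusted p of 0.0505 to 0.186), with RLE or upper-quartile scaling (0.10 in both, edgeR adjusted p = 0.0504 and 0.0501) and with at least 10 counts in every library (0.08, edgeR adjusted p = 0.0796). The Ppp1r15b difference in Myc310 was past the threshold with all libraries and not without the pair of libraries whose numbers lie apart (0.09, edgeR adjusted p = 0.0552), nor without MYAZ16_1e (0.06, edgeR adjusted p = 0.122), and that of Ppp1r15a was not without MYAZ6_6g (-0.20, edgeR adjusted p = 0.0687), the line without which Eif2ak2 did pass it (-0.27, edgeR adjusted p = 0.022). In all, 4 members were called in Myc310 and 5 each in LM and LM-LM, where 50.9%, 60.8% and 62.8% of all genes were.

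An exact two-sided permutation test on the means of 3 lines against 3 cannot go below p = 0.1. The exact test gave this smallest value for Eif2ak3, Eif2ak4 and Ppp1r15b in LM and in LM-LM, where the line means did not overlap with those of MYAZ, p = 0.2 for Eif2ak2 and Ppp1r15a, and p = 0.9 in LM and 0.6 in LM-LM for Eif2ak1 (adjusted over the 12 tests, 0.2 to 0.9). Among markers of other cell types, the leukocyte and endothelial sums did not overlap between the MYAZ and NDI1 libraries and the others, whereas the fibroblast and alveolar sums overlapped. Leukocyte markers were at 2.77 to 7.02 CPM in the MYAZ and NDI1 libraries and at 9.43 to 19.7 CPM in the others, endothelial markers at 3.52 to 6.56 CPM and 0 to 0.911 CPM, fibroblast markers at 7.06 to 106 CPM and 1.54 to 217 CPM, and alveolar markers at 0.602 to 1.97 CPM and 0.0504 to 1.41 CPM. Most of the leukocyte sum was Cd68 (up to 18.7 CPM), and of the endothelial list Kdr alone exceeded 1 CPM. Their part in the differences between lines was not tested.

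The orders of single lines in control medium given here leave out MYAZ12_3i_NDI1, in which Eif2ak3 was at 18.1 ± 1.3 CPM. Among the other 10 lines, the levels of Eif2ak3 ran from LM3_LM (33.02 ± 0.60 CPM, SD, n = 3) through LM2 (28.2 ± 1.3), Myc310 (28.1 ± 2.4), LM3 (27.0 ± 2.1), LM2_LM (25.5 ± 1.0), LM1_LM (22.4 ± 0.3) and LM1 (21.3 ± 0.9) to MYAZ12_3i (17.2 ± 0.8), MYAZ6_6g (16.0 ± 0.5) and MYAZ16_1e (15.6 ± 0.7). Of the 9 pairs of neighbours in this order, 4 overlapped in their libraries. LM1 and LM1_LM, in which Eif2ak3 rose under deprivation, were the lowest of the Myc310 descendants in control medium, and after deprivation LM1_LM reached 33.4 ± 1.4 CPM, near LM3_LM in control medium. Among the same 10 lines, Eif2ak4 was highest in MYAZ6_6g (51.6 ± 1.5 CPM), followed by MYAZ16_1e (45.5 ± 0.9) and MYAZ12_3i (40.5 ± 0.8), and lowest in LM2 (32.3 ± 1.8), and 5 of its 9 neighbour pairs overlapped. In MYAZ12_3i_NDI1 it was at 43.2 ± 0.5 CPM. Eif2ak2 was set apart by MYAZ16_1e, at 48.1 ± 2.0 CPM above MYAZ12_3i (37.9 ± 0.8) without overlap, with LM2_LM lowest at 30.6 ± 0.3. The orders of Eif2ak1 (63.1 ± 1.0 CPM in LM2_LM to 50.3 ± 0.9 in MYAZ12_3i), Ppp1r15a (24.9 ± 1.5 in MYAZ6_6g to 17.7 ± 1.9 in LM2_LM) and Ppp1r15b (152 ± 5 in LM2_LM to 127 ± 2 in MYAZ16_1e) had 8 of 9 neighbour pairs that overlapped. Ppp1r15b was the steadiest, with the highest line at 1.19 times the lowest, against 2.11 times for Eif2ak3.

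**Figure D4:**
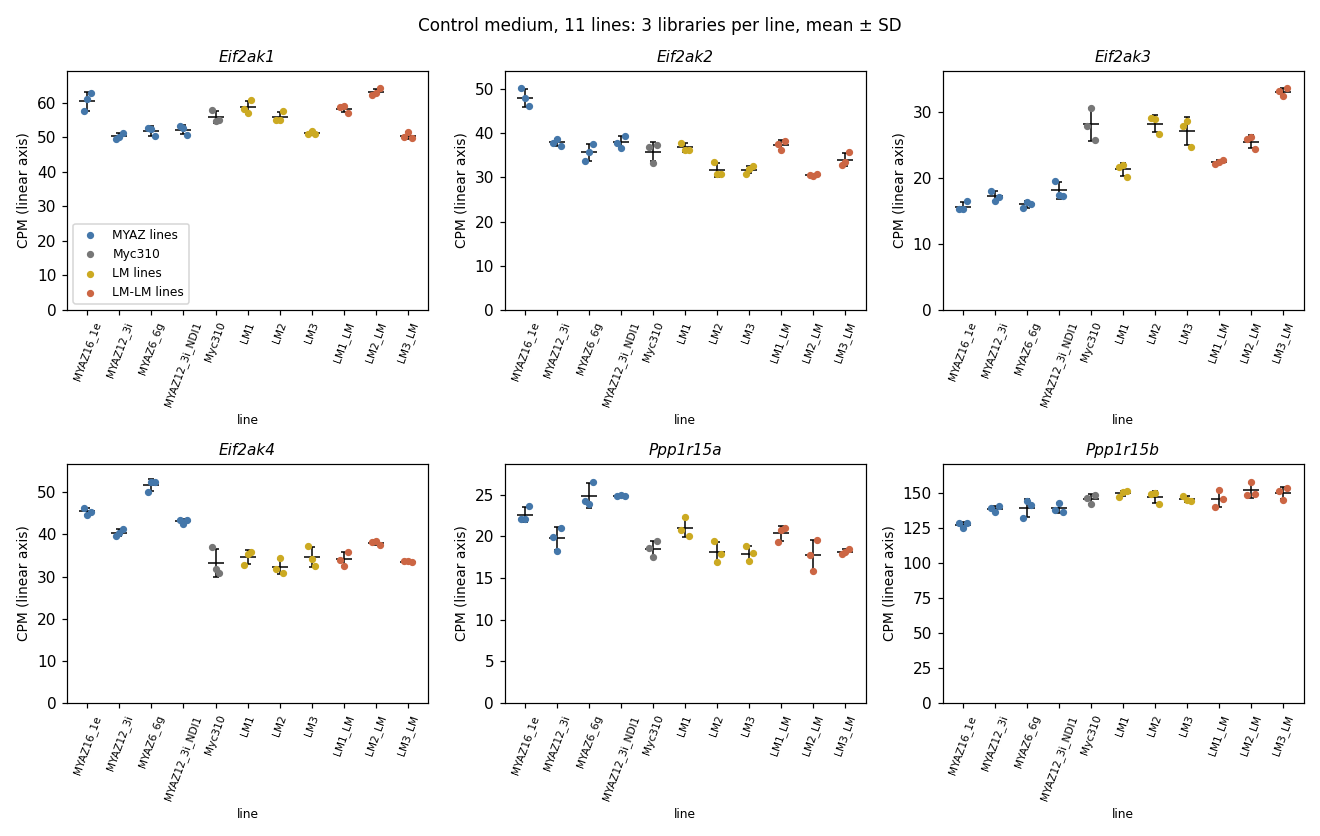
Level (CPM, linear axis from 0) of the 6 genes in control medium in 11 lines, with 1 point per library, coloured by subtype, and the mean ± SD of 3 libraries in black. Without MYAZ12_3i_NDI1, the MYAZ libraries of Eif2ak3 lie at 15.2 to 18.1 CPM, below all libraries of Myc310, LM and LM-LM, and those of Eif2ak4 lie above them.

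In MYAZ12_3i_NDI1, which was compared with MYAZ12_3i in control medium, Ppp1r15a was the only member called, beside 17.4% of all 12841 genes tested. Its libraries stood at 24.8, 24.9 and 24.8 CPM against 20.0, 18.2 and 21.0 CPM in the parental line and did not overlap with them. It was higher by a log2 fold change of 0.33 ± 0.07 (SE, edgeR adjusted p = 0.00319). Leaving out the libraries of any 1 replicate number gave 0.27 to 0.38, near the threshold at its weakest (edgeR adjusted p of 0.0172 to 0.0495). The lowest parental library, at 18.2 CPM, is the replicate 2 whose number lies apart, and the call was kept without it. The other 5 members differed by -0.00 to 0.09, with 95% intervals that stayed between -0.09 and 0.20. The level of Ppp1r15a in this line equalled that of MYAZ6_6g, which does not carry NDI1, within 1 SD (24.9 ± 0.04 and 24.9 ± 1.5 CPM).

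The genes of the substrate and of its exchange factor moved in both directions. Of the 8 genes for subunits of eIF2 and eIF2B, 2 rose and 4 fell in MYAZ16_1e, 4 rose and 4 fell in Myc310, and 3 rose and 4 fell in LM1 and in LM1_LM, with list medians of -0.08, -0.03, -0.13 and -0.13 on the log2 scale where the median of all genes was between -0.01 and 0. Eif2s2, the beta subunit of eIF2, rose in each line, by 0.52 ± 0.03 (SE) in MYAZ16_1e and 1.06 ± 0.03 in LM1_LM (edgeR adjusted p of at most 7.1e-16). Eif2b4, the delta subunit of eIF2B, fell in each, with -0.25 ± 0.05 in MYAZ16_1e and -0.64 ± 0.05 in LM1_LM (edgeR adjusted p of at most 4.74e-05). Of the 3 genes for PP1 catalytic subunits, 2 fell in MYAZ16_1e, 1 rose and 2 fell in Myc310 and in LM1, and 1 rose and 1 fell in LM1_LM (2 fell there with upper-quartile scaling). Ppp1cb rose in Myc310, LM1 and LM1_LM by 0.20 to 0.38, with a value of 0.00 ± 0.03 in MYAZ16_1e, and Ppp1cc fell in all 4 lines, with values of -0.29 to -0.12 (edgeR adjusted p of at most 0.000828). Ppp1ca fell in MYAZ16_1e (-0.13 ± 0.03), Myc310 (-0.09 ± 0.03) and LM1 (-0.07 ± 0.03, edgeR adjusted p of at most 0.0247), with -0.01 ± 0.03 in LM1_LM.

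Among 9 regulators of the kinases, 5 rose and 2 fell in MYAZ16_1e, 4 rose and 3 fell in Myc310, and 4 rose and 4 fell in LM1 and in LM1_LM, with medians of 0.22, -0.07, -0.04 and -0.07 where the median of all genes was between -0.01 and 0. Among all genes 26.6% to 36.5% rose and 27.1% to 35.9% fell in these lines, the background for these counts and for those of the other lists under deprivation. Hspa5, the chaperone BiP that holds PERK inactive in the unstressed endoplasmic reticulum, rose most in Myc310 (1.14 ± 0.02, SE, log2) and in LM1 and LM1_LM (1.62 ± 0.02 in each). In MYAZ16_1e it rose by 0.43 ± 0.02, about as much as Oma1 (edgeR adjusted p of at most 6.1e-17 for Hspa5 in the 4 lines). Oma1, the mitochondrial protease that cuts DELE1 and thereby engages HRI, rose in MYAZ16_1e (0.43 ± 0.07) and fell in LM1 (-0.32 ± 0.07) and LM1_LM (-0.46 ± 0.07, edgeR adjusted p of at most 0.000306). Tarbp2, an inhibitor of PKR, fell in the 4 lines, with -0.38 to -0.53 (edgeR adjusted p of at most 1.65e-07), and Prkra, an activator of PKR, fell in Myc310 (-0.25 ± 0.09), LM1 (-0.39 ± 0.09) and LM1_LM (-0.42 ± 0.09, edgeR adjusted p of at most 0.0148), with -0.02 ± 0.07 in MYAZ16_1e. In control medium Prkra was also lower than in MYAZ, with -1.26 ± 0.07 for Myc310, -1.05 ± 0.04 for LM and -1.03 ± 0.04 for LM-LM (edgeR adjusted p of at most 2.26e-15). That fit takes libraries and not lines as replicates, Myc310 is a single line, and 50.9%, 60.8% and 62.8% of all genes were called in it.

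All 12 ISR target genes rose in each line under deprivation, with medians of 3.36 in MYAZ16_1e, 2.73 in Myc310, 3.60 in LM1 and 3.62 in LM1_LM on the log2 scale. The 4 with the largest change in LM1_LM were Atf3, a transcription factor of the response (log2 fold change 9.62), Chac1, which degrades glutathione (6.31), Trib3, a pseudokinase that restrains the response (4.98), and Ddit3, the transcription factor CHOP that induces Ppp1r15a (4.76, edgeR adjusted p of at most 1.09e-28). In MYAZ16_1e these genes changed by 4.37, 5.94, 4.90 and 3.53. Set against the response of MYAZ16_1e, whose libraries these contrasts share, 5 of the 12 genes responded more and 4 less in Myc310 (40.3% of all genes differed), 9 more and 2 less in LM1 (52.2%), and 8 more and 2 less in LM1_LM (54.8%). Trib3 differed by -0.93 ± 0.08 (SE) in Myc310 (edgeR adjusted p = 1.5e-10), with 0.17 ± 0.09 in LM1 and 0.08 ± 0.09 in LM1_LM. Against MYAZ in control medium, 6 of the 12 genes were lower and 2 higher for Myc310, and 7 lower and 2 higher for LM and for LM-LM (medians -0.48, -0.53 and -0.57), where 50.9%, 60.8% and 62.8% of all genes were called in either direction.

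Interferon-stimulated genes were followed because Eif2ak2 is one of them. Of 14 tested under deprivation, 4 rose in MYAZ16_1e, 4 rose and 2 fell in Myc310, 7 rose and 2 fell in LM1, and 6 rose and 2 fell in LM1_LM, whereas Eif2ak2 fell in each line. Among all genes 26.6%, 32.8%, 35.8% and 36.5% rose in these lines. With upper-quartile scaling 5 of the interferon-stimulated genes fell in LM1. The genes that rose most in LM1_LM were Ifit1 (3.74 ± 0.51, SE, log2), Rsad2 (3.41 ± 0.42), Oasl2 (2.45 ± 0.54) and Isg15 (2.33 ± 0.27, edgeR adjusted p of at most 0.000185). Most of these genes had few counts, and with at least 10 counts required in every library 2 rose in each line. In control medium 10 of 15 were lower for Myc310, 6 for LM and 8 for LM-LM, and 1 was higher each time, where 50.9%, 60.8% and 62.8% of all genes were called in either direction, and the medians were -1.48, -0.60 and -0.79 (at least 10 counts in every library left 4 lower in Myc310 and in LM-LM).

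**Figure D5:**
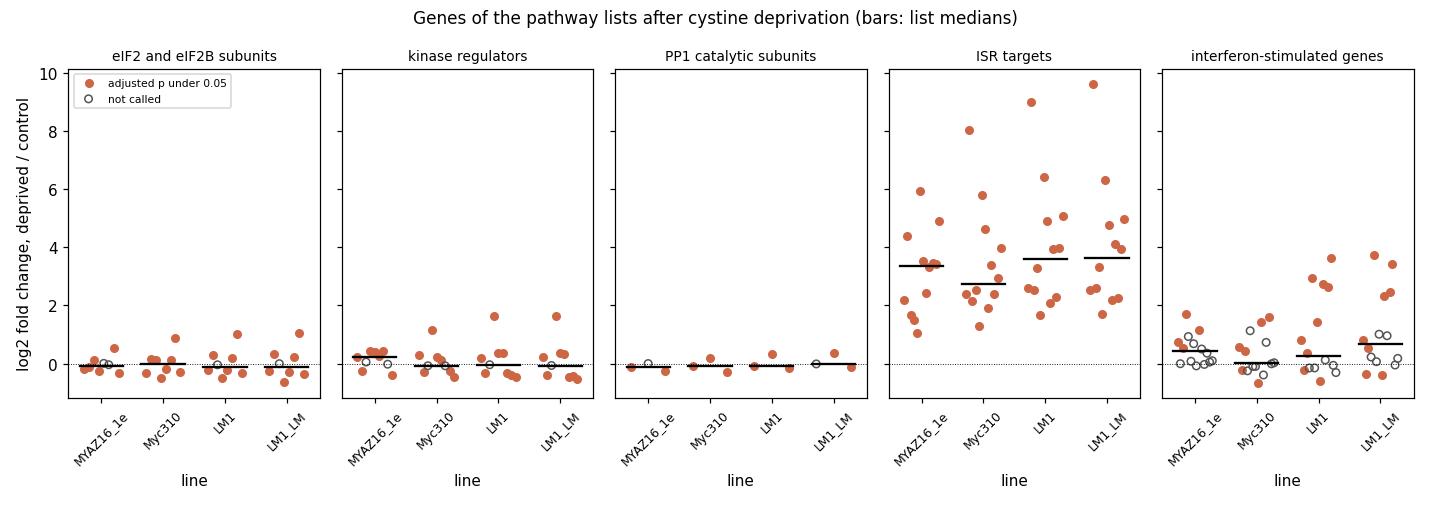
Log2 fold change, deprived over control, of every tested gene of 5 pathway lists in 4 lines, with filled points past an adjusted p of 0.05, open points not past it, and bars at the list medians. All ISR target genes lie above 1, with medians of 2.73 to 3.62, while the medians of the eIF2 and eIF2B, regulator and PP1 lists lie between -0.13 and 0.22.

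Genes whose pattern was most like that of a member were sought over the 15 group means of log2 CPM, among 9091 genes, as a description only, because the points share libraries of related lines and the 4 deprived groups lie far from the rest. Nearest to Ppp1r15a were Gtpbp2 (Pearson r = 0.994), Zbtb21 (0.993) and 2410006H16Rik (0.993). Nearest to Ppp1r15b were Cep170 (0.987), Pop4 (0.987) and Zfp715 (0.985). For Eif2ak1 they were Fubp3 (0.986), Tmem97 (0.976) and Wdr55 (0.974), and for Eif2ak4 they were Dcaf17 (0.982), Smpd2 (0.976) and Wdr24 (0.971). Eif2ak2 was followed by Ercc3 (0.957), Mfsd10 (0.954) and ENSMUSG00000116995 (0.954), and Eif2ak3 by Ctsl (0.957), Atp10a (0.944) and Plau (0.944). Among the members themselves, Ppp1r15a and Ppp1r15b were the most alike (0.934), and Ppp1r15b and Eif2ak4 the most opposed (-0.928).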

How the data were processed

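RNA of cultured mouse mammary tumour lines was sequenced from poly-A selected, directional libraries as paired-end reads. Per the labels and methods, the authors aligned reads with STAR and quantified them with RSEM in the nf-core pipeline, and deposited unnormalized counts of reads per gene (whole numbers, GRCm38). The submitters' notes also name R 4.2.2 and DESeq2 1.38.3. The strand setting and annotation release are not given in the sources used here.

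Groups follow the line and treatment in the sample labels. Counts were analysed in R 4.3.3 with edgeR 4.0.16 (TMM, filterByExpr, quasi-likelihood test, Benjamini-Hochberg adjustment over all genes tested, threshold 0.05). The deprivation model held 24 libraries in 8 groups (13400 genes), the subtype model 30 control libraries (13795 genes), and MYAZ12_3i_NDI1 was set against MYAZ12_3i in a model of 6 libraries (12841 genes). The standard error is the log2 fold change divided by the root of F, which understates the error of very large fold changes. The 95% intervals use normal quantiles of it and are slightly narrower than the test implies. CPM were computed over all 45 libraries, with a prior count of 2 for logarithms, and CPM per kb used the exons of GENCODE mouse release 21, which also gave positions. Promoter windows came from RefSeq. Within groups, 45 pairs of libraries were compared by chi-square per degree of freedom (2.26 to 6.76), and none were identical. The models were tested on simulated data.

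The members and gene lists were chosen with earlier results of these data known. Genes named beyond the members are, per list, at most 4 with the largest change among those called, and per member the 3 most alike in pattern among genes whose log2 CPM averaged 3 or more. Alternatives were RLE and upper-quartile scaling, other count filters, DESeq2 1.42.0, the replicate number as a block, smaller or larger sets of samples, counts summed per line, limma 3.58.1 voom with line as a random block, and leaving out replicates, lines or the pair of libraries with numbers apart. Of the marker genes, 5 are not used here. Ddx58 was matched by gene ID.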

Additional observations from a re-analysis of the deposited data

Results flagged for a closer look

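Differences in the response to deprivation between lines were each tested as an interaction term in the edgeR model, and 19 of 30 differences (6 members in 5 contrasts) passed the threshold. Among all genes, 40.3% (Myc310), 52.2% (LM1) and 54.8% (LM1_LM) differed from MYAZ16_1e, 24.5% between LM1 and Myc310 and 0.769% between LM1_LM and LM1. Against MYAZ16_1e, Ppp1r15a differed on the log2 scale by 1.64 in Myc310, 1.90 in LM1 and 2.04 in LM1_LM, and Ppp1r15b by 0.11, 0.45 and 0.54. Eif2ak1 differed by -0.34, -0.45 and -0.44 in the same lines, and Eif2ak4 by -0.28, -0.59 and -0.66. Eif2ak3 differed by 0.41 in LM1 and 0.57 in LM1_LM, and Eif2ak2 by -0.20 in LM1_LM. Between LM1 and Myc310 the differences were 0.54 for Eif2ak3, 0.34 for Ppp1r15b, 0.26 for Ppp1r15a and -0.31 for Eif2ak4. The contrasts share libraries, and each subtype is represented by 1 line here.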

How the results depend on the processing

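Of 1002 values of the 78 member results under alternatives, 938 kept direction and side of the threshold, 42 lost the call, 4 gained it and 18 changed sign. Every call under deprivation was kept in all 11 alternatives run. Sign changes concerned differences near 0 that did not pass the threshold. Against MYAZ12_3i, NDI1 gave for Eif2ak2 0.00045 with DESeq2, 0.0015 without the filter and 0.014 without MYAZ12_3i control replicate 2 (-0.047 to 0.041 when leaving out replicates), and for Ppp1r15b 0.00058 and 0.0014 (-0.034 to 0.022). Leaving out replicates gave -0.15 to 0.015 for Eif2ak3 under deprivation in Myc310, -0.16 to 0.055 for the Eif2ak2 response of LM1 against Myc310, -0.18 to 0.075 for that of Myc310 against MYAZ16_1e, and -0.051 to 0.057 for the Eif2ak1 response of LM1_LM against LM1. Eif2ak1 in LM was -0.0044 without LM1, -0.022 without MYAZ12_3i and -0.0047 without MYAZ6_6g, in LM-LM -0.0085 without LM2_LM, and in Myc310 -0.010 without MYAZ12_3i.

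With counts summed per line, 2 members were called in LM and 2 in LM-LM, and with voom and the line as a random block 2, 2 and, in Myc310, 1. Leaving out replicates gave 2 to 4 members for the responses of LM1 against Myc310 and of Myc310 against MYAZ16_1e, and 2 to 3 for Myc310 against MYAZ, where the calls over all genes went from 3278 to 2035 to 2438, from 5396 to 4045 to 4512 and from 7022 to 5366 to 5418. Over all genes, the calls for NDI1 went from 2236 to 898 to 1326 without a replicate and 1480 without MYAZ12_3i control replicate 2. Those for LM1_LM against LM1 went from 103 to 182 with DESeq2, 218 without the filter and 4 to 44 without a replicate. In LM they were 8385 in the library-level fit, 3662 in the separate fit of counts summed per line and 4759 with voom, in LM-LM 8661, 4096 and 5054, and in Myc310 7022 and, with voom, 2819. The cause was not tested, except that leaving out libraries or summing them leaves fewer samples.

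Replicate numbers did not pair the samples between media within the 4 lines or between MYAZ12_3i and MYAZ12_3i_NDI1: 15 correlations of same-numbered libraries ran from -0.176 to 0.158. Those between lines of the subtype model were not computed. With the replicate block the deprivation calls in MYAZ16_1e went from 7195 to 7142 genes, and the block changed no call of a member.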
